A study of Mus musculus with 4 samples.

Results

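Laminins are the secreted glycoproteins from which the sheet of a basement membrane first assembles. Each is a heterotrimer of 1 alpha, 1 beta and 1 gamma chain, and its name gives the numbers of the 3 chains in that order, so that laminin-211 is the product of Lama2, Lamb1 and Lamc1. Beta and gamma chains pair first in the endoplasmic reticulum, and the trimer is secreted once an alpha chain has joined them. The alpha chain carries the globular domains that bind integrins and dystroglycan, so the choice of alpha chain largely sets which receptors a laminin engages. In the testis, laminins line the seminiferous tubules at the border of Sertoli and peritubular myoid cells and surround blood vessels and Leydig cells.

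The 9 genes described are those rows of the deposited expression table whose gene symbol is Lama1, Lama2, Lama3, Lama4, Lama5, Lamb1, Lamb2, Lamc1 or Lamc3, out of 22802 rows in all. They were measured by RNA sequencing in testicular interstitial cells of C57BL/6J mice at postnatal day 10. The mice carried mFLE-Cre with CAG-CAT-EGFP, a reporter that makes EGFP in cells where Cre recombinase has acted. All 4 libraries shared that genotype, strain and age, and cells were sorted into EGFP-positive, laminin-positive cells (2 libraries) and EGFP-positive, laminin-negative cells (2 libraries). The design text of the series calls the EGFP of the laminin-negative cells weak, so the populations may differ in EGFP as well as in laminin staining. The sources used here do not say what drives Cre under the name mFLE, which laminin antibody was used or how many animals went into each library. The p-values below therefore measure the spread between these libraries, which may be technical. Laminin staining defined the populations, so a difference in laminin genes between them is related to the gate and is not independent of it. Protein was not measured here, and whether the stained laminin was made by the sorted cell or bound from its surroundings was not tested.

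Levels are in FPKM, a unit that scales fragment numbers by transcript length and by library size. Levels of different chains are set side by side on that scale. Whether FPKM tracks transcript numbers equally well in different genes was not tested. That limits every ratio between chains or chain classes and every trimer bound below. The summed FPKM was 503950 and 491475 in the laminin-positive libraries and 532323 and 548986 in the laminin-negative libraries, and 11794 to 12011 rows reached 1 FPKM. The number of sequenced fragments is unknown. Markers of smooth muscle and peritubular myoid cells (6 genes) summed to 5345 and 5404 FPKM in laminin-positive libraries, against 167 and 154 FPKM in laminin-negative libraries. Markers of steroidogenic Leydig cells (6 genes, 1 of them in a row that merges Insl3 with Jak3) summed to 207 and 161 FPKM in laminin-positive libraries, against 4824 and 4568 FPKM in laminin-negative libraries. Interstitial progenitor markers (4 genes) were abundant in both, at 950.2 and 986 FPKM in laminin-positive and 843 and 837 FPKM in laminin-negative libraries. In bulk samples of this kind, fewer cells of a type and less RNA per cell cannot be told apart.

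The results turn on the gamma chains, so the last codons of their messages are shown with those of the beta chains they pair with. In recombinant laminins, integrin binding depends on a glutamate that is the third residue from the end of the Lamc1 product. A cysteine near the end of the gamma chain forms a disulfide bond with one near the end of the beta chain. Each line gives the final 51 coding bases and the stop codon, 5′ to 3′, from GENCODE M21 transcripts on GRCm38. Capitals mark the third codon from the end in the gamma chains and the last cysteine codon in the beta chains.
Lamc3: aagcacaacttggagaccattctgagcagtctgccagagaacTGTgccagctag
Lamc1: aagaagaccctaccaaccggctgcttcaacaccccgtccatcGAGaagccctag
Lamb1: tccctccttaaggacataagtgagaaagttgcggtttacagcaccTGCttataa
Lamb2: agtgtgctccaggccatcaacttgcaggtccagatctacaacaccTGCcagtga

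The third codon from the end is a glutamate codon in Lamc1 and a cysteine codon in Lamc3. In Lamc3 the cysteine codon nearest the end is thus codon 3 counted back from the stop, whereas in Lamc1 it is codon 10. In both beta chains it is codon 2. The coding part has 1581 codons in Lamc3, 1607 in Lamc1, 1834 in Lamb1 and 1799 in Lamb2.

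Of the 9 chains, 8 passed the filter of at least 1 FPKM in at least 2 libraries. By limma, a linear model fitted on log2(FPKM + 1) across 12348 genes with p-values adjusted over all of them (two-sided, threshold 0.05), 4 chains rose in laminin-positive cells, namely Lamc3, Lamb2, Lama5 and Lama2, and 2 fell, namely Lama4 and Lama1. Lamb1 and Lamc1 did not pass. The same test called 52.9% of all genes, 26.6% of them higher and 26.3% lower, where percentages are of all genes tested, so 6 of 8 chains is a count to be read against a background of about that size. The libraries of the populations did not overlap for any of the 8 tested chains, which was so for 77.2% of all genes tested. The median log2 difference was 0.42 over the 8 chains and 0.01 over all genes. A chain that passed the filter only through the population where it is high had to differ, and that applies to Lama5.

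**Figure D1:**
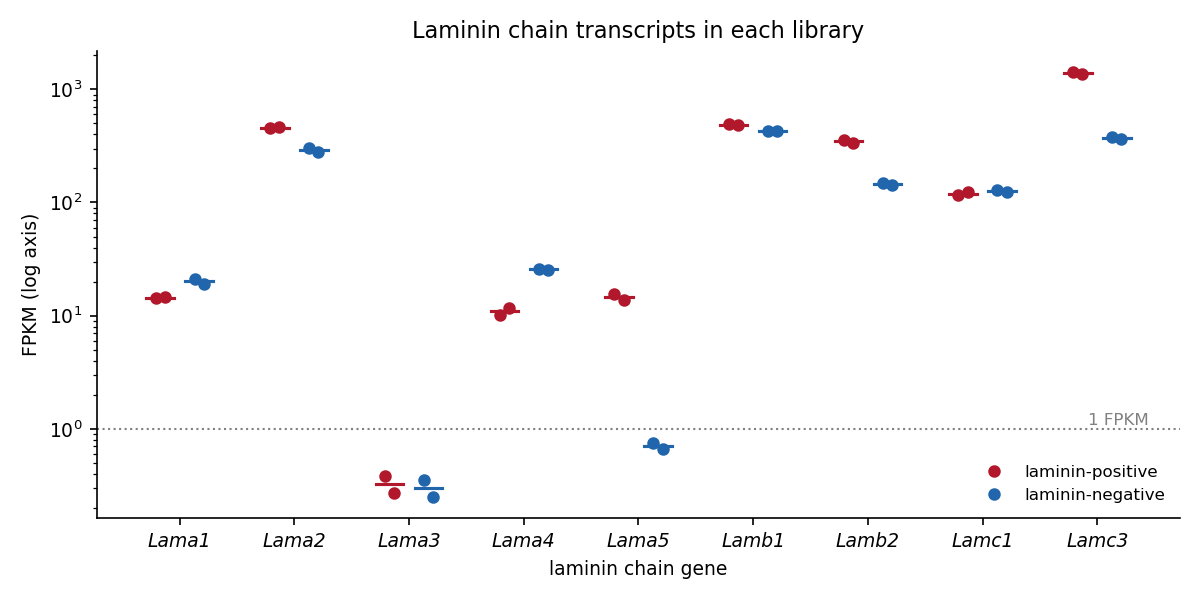
FPKM of each laminin chain gene (log axis) in the 2 laminin-positive libraries (red, left of each pair) and the 2 laminin-negative libraries (blue, right), with a short line at the mean of each population. Lamc3 reached 1424 and 1374 FPKM in laminin-positive libraries, Lama5 lay below the dotted line of 1 FPKM in laminin-negative libraries, and Lama3 lay below it in all 4.

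Lamc3, which encodes a gamma chain with a narrow distribution that includes retina, brain and testis, was the most abundant of the 9 chains in laminin-positive cells. It stood at 1424 and 1374 FPKM in laminin-positive libraries, against 377 and 363 FPKM in laminin-negative libraries. Both laminin-positive libraries were far above both laminin-negative ones, by 3.78-fold on the means (log2 difference 1.92, SE 0.08, limma adjusted p = 7.93e-09). Among all 22802 rows Lamc3 ranked 51 and 50 by FPKM in laminin-positive libraries and 194 and 216 in laminin-negative libraries, so it was a highly expressed gene in both. The gene lies on chromosome 2, 31887291 to 31946539 (GRCm38, GENCODE M21), and is overlapped by the antisense gene Gm13441. Overlaps given here are of whole gene spans, and whether exons overlap was not checked. The sources used here do not say whether strand was used in counting. Reads of an antisense partner from any shared exon could thus not be told apart from reads of Lamc3.

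Lamc1, the gamma chain of most laminins in the body (chromosome 1, 153218922 to 153332786), stood at 117 and 123 FPKM in laminin-positive libraries, against 130 and 124 FPKM in laminin-negative libraries. In GENCODE M21 the antisense gene Gm8818 and the same-strand gene Gm38009 overlap Lamc1, so the same limit on reads holds for it. The populations nearly touched, and the difference did not pass the test (log2 difference −0.08, SE 0.07, limma adjusted p = 0.361). Its sign turned, to 0.04, when libraries were set to equal FPKM sums without the ribosomal RNA row Rn45s. That scaling moved the median log2 difference of all genes to 0.11 and the share of calls that were higher to 64.1%, against 50.3% with FPKM as deposited.

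The gamma pool therefore differed in composition. Lamc3 made up 92.4% and 91.8% of gamma chain FPKM (Lamc1 plus Lamc3) in laminin-positive libraries, against 74.4% and 74.6% in laminin-negative libraries. The ratio of Lamc3 to Lamc1 was 12.2 and 11.2 in laminin-positive and 2.91 and 2.93 in laminin-negative libraries. Shares within a class do not depend on how libraries are scaled, and the populations did not overlap. An exact permutation test of 2 against 2 libraries, two-sided, gave p = 0.333 for both measures, the smallest this design allows. The transcript without the glutamate codon at the third position from its end was thus the more abundant of both gamma transcripts in every library.

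Lamb2, a beta chain known from the neuromuscular synapse, kidney glomerulus and vessel wall (chromosome 9, 108479736 to 108490530), stood at 354 and 338 FPKM in laminin-positive libraries, against 149 and 144 FPKM in laminin-negative libraries. All laminin-positive values were more than 2 times the laminin-negative ones (2.36-fold on the means, log2 difference 1.24, SE 0.07, limma adjusted p = 1.29e-07). Lamb1, the widely expressed beta chain (chromosome 12, 31265234 to 31329644), stood at 491 and 484 FPKM in laminin-positive libraries, against 431 and 429 FPKM in laminin-negative libraries. The groups did not overlap, but the difference was 1.13-fold and missed the threshold (log2 difference 0.18, SE 0.07, limma adjusted p = 0.0537). Lamb1 was called higher under quantile normalization (limma adjusted p = 0.0224), with equal FPKM sums (0.00252) and without variance shared across genes (0.0295), in a range of 0.00252 to 0.280 over 14 alternatives.

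Lamb1 was the larger part of the beta pool in both populations, but less so in laminin-positive cells. Lamb2 made up 41.9% and 41.1% of beta chain FPKM (Lamb1 plus Lamb2) in laminin-positive libraries, against 25.6% and 25.2% in laminin-negative libraries (exact permutation p = 0.333, the smallest possible). Lamb3, a beta chain of epithelial laminin, stood at 0.0732 and 0.138 FPKM in laminin-positive and 0.580 and 0.635 FPKM in laminin-negative libraries.

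Lama2, the alpha chain of the basement membranes of muscle and peripheral nerve and a strong dystroglycan ligand (chromosome 10, 26980036 to 27619758), dominated the alpha chains. It stood at 456 and 463 FPKM in laminin-positive libraries, against 303 and 281 FPKM in laminin-negative libraries. The populations were well apart relative to their replicates (1.57-fold on the means, log2 difference 0.65, SE 0.07, limma adjusted p = 3.03e-05). Of alpha chain FPKM, Lama2 held 91.9% and 92.0% in laminin-positive libraries and 86.3% and 86.1% in laminin-negative libraries. Several small genes overlap it in GENCODE M21, among them the antisense genes Gm48084 and Gm17917.

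Lama5, the alpha chain of many adult epithelial and vascular basement membranes (chromosome 2, 180176373 to 180225859), had the largest ratio of the chains. It stood at 15.4 and 13.9 FPKM in laminin-positive libraries, against 0.753 and 0.662 FPKM in laminin-negative libraries. The difference was 20.7-fold on the means (log2 difference 3.19, SE 0.11, limma adjusted p = 2.57e-09). Lama5 passed the filter only through the laminin-positive libraries, so a difference was fixed by it and the p-value adds no support. Since the laminin-negative values lie below 1 FPKM, the size of the ratio is uncertain. Even so, Lama5 was only 3.11% and 2.75% of alpha chain FPKM in laminin-positive libraries and 0.214% and 0.203% in laminin-negative libraries.

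Lama4, an alpha chain of vascular and mesenchymal basement membranes that lacks the amino-terminal arm of the other long alpha chains (chromosome 10, 38965515 to 39110188), ran the other way. It stood at 10.2 and 11.7 FPKM in laminin-positive libraries, against 26.0 and 25.2 FPKM in laminin-negative libraries. Every laminin-positive value was lower (log2 difference −1.15, SE 0.09, limma adjusted p = 1.57e-06), and the laminin-negative mean was 2.33 times the laminin-positive mean. Lama4 held 2.06% and 2.33% of alpha chain FPKM in laminin-positive libraries, against 7.40% and 7.72% in laminin-negative libraries.

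Lama1, the main alpha chain of the early embryo that persists in a few adult tissues including the testis (chromosome 17, 67697259 to 67822647), stood at 14.3 and 14.6 FPKM in laminin-positive libraries, against 21.0 and 19.2 FPKM in laminin-negative libraries. Both laminin-positive values were lower (log2 difference −0.45, SE 0.09, limma adjusted p = 0.00119). The call was lost in a fit with a separate variance for each gene (limma adjusted p = 0.0689), in a range of 7.71e-04 to 0.0689 over 14 alternatives. Lama3, the alpha chain of skin and other epithelia, stood at 0.384 and 0.269 FPKM in laminin-positive libraries, against 0.352 and 0.251 FPKM in laminin-negative libraries. Its values overlapped, it was below the filter, and with no filter it was not called (log2 difference 0.03, limma adjusted p = 0.810).

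The order of the minor alpha chains differed between the populations. In laminin-positive cells Lama5 and Lama1 stood close together at 14.6 ± 1.13 and 14.4 ± 0.223 FPKM (SD, n = 2), with Lama4 below them at 10.97 ± 1.06 FPKM. In laminin-negative cells the order was Lama4 at 25.6 ± 0.556, Lama1 at 20.1 ± 1.29 and Lama5 at 0.708 ± 0.0647 FPKM. Summed over these 3 genes the level was 39.9 and 40.2 FPKM in laminin-positive libraries and 47.8 and 45.1 FPKM in laminin-negative libraries. Lama5 and Lama1 in laminin-positive cells are neighbours in level that did not differ beyond their spread.

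Summed alpha chains reached 497 and 504 FPKM in laminin-positive libraries, against 351 and 326 FPKM in laminin-negative libraries. Summed beta chains reached 845 and 823 FPKM in laminin-positive and 579 and 573 FPKM in laminin-negative libraries. Summed gamma chains reached 1541 and 1496 FPKM in laminin-positive and 507 and 486 FPKM in laminin-negative libraries. By FPKM, alpha transcripts were the least abundant class in every library. The ratio of alpha to beta FPKM was 0.588 and 0.612 in laminin-positive and 0.606 and 0.570 in laminin-negative libraries, values that overlapped (exact permutation p = 0.667, two-sided).

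The ratio of gamma to beta FPKM was 1.82 in each laminin-positive library and 0.875 and 0.849 in laminin-negative libraries (exact permutation p = 0.333, the smallest possible). By FPKM, gamma transcripts thus exceeded beta transcripts in laminin-positive cells and lay slightly below them in laminin-negative cells. All 9 chains together summed to 2882 and 2823 FPKM in laminin-positive libraries and 1438 and 1386 FPKM in laminin-negative libraries, a ratio of 2.02 between the means. Of the difference of 1441 FPKM between the means, 1022 FPKM lay in the gamma chains, 258 FPKM in the beta chains and 161 FPKM in the alpha chains. Differences in FPKM sums depend on library scaling, whereas the ratios between classes do not.

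**Figure D2:**
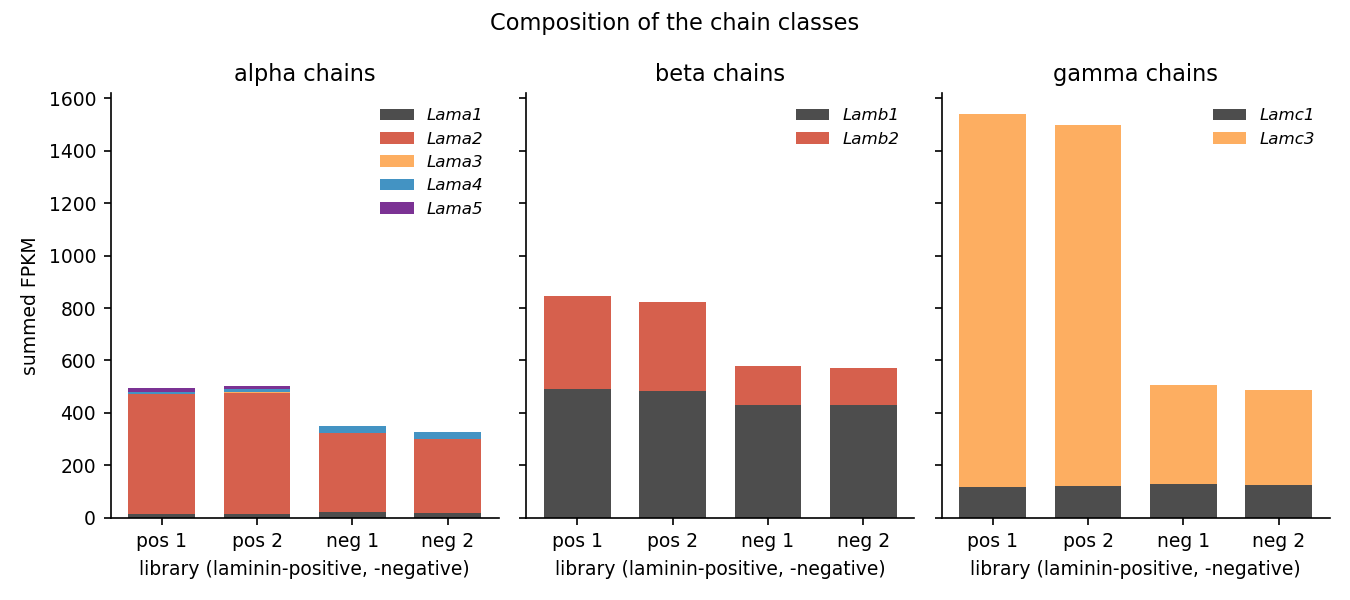
Stacked FPKM of the alpha, beta and gamma chain genes in each library (pos, laminin-positive, left; neg, laminin-negative, right; linear axis from 0). Lama2 fills most of each alpha bar, Lamb1 the larger part of each beta bar and Lamc3 most of each gamma bar, and the laminin-positive gamma bars reach 1541 and 1496 FPKM.

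Which trimers the transcripts allow was read by asking whether all 3 chains of a trimer reached 1 FPKM in both libraries of a population. A list of 13 trimers described in general knowledge of the field was used and was not checked against literature. Of these, 11 were possible in laminin-positive cells and 8 in laminin-negative cells. All 8 of the laminin-negative cells were also possible in laminin-positive cells, namely laminin-111, laminin-121, laminin-211, laminin-221, laminin-213, laminin-411, laminin-421 and laminin-423. The other 3, laminin-511, laminin-521 and laminin-523, were possible in laminin-positive cells by this threshold, and each was set by Lama5. With the threshold at 0.5 FPKM all 3 would also count in laminin-negative cells, where Lama5 was at 0.753 and 0.662 FPKM, so the number of possible trimers became 11 in both populations. At 5 and at 10 FPKM the counts were 11 and 8. The Lama3 trimers laminin-311 and laminin-321 were possible in neither population at 1 FPKM. Without that list, 16 of the 20 combinations of 1 alpha, 1 beta and 1 gamma chain among the 9 genes reached the threshold in laminin-positive cells and 12 of 20 in laminin-negative cells.

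The scarcest of the 3 chains bounds how much of a trimer could be encoded, if FPKM tracked transcript numbers alike in all chains and protein matched them. Neither was measured. By that bound laminin-213, a trimer first isolated from placenta, was the most abundant in both populations. Its scarcest chain was Lama2 in every library, at 456 and 463 FPKM in laminin-positive and 303 and 281 FPKM in laminin-negative libraries. Lama2, Lamb1 and Lamc3 were also the most abundant alpha, beta and gamma transcripts in all 4 libraries. The bound for laminin-211 and laminin-221, the classical muscle and synaptic laminins, was set by Lamc1, at 117 and 123 FPKM in laminin-positive and 130 and 124 FPKM in laminin-negative libraries.

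For the remaining possible trimers the alpha chain was the scarcest member. This was so for 9 of the 11 possible trimers in laminin-positive cells and 6 of the 8 in laminin-negative cells, laminin-213 included. Laminin-411, laminin-421 and laminin-423 were bounded by Lama4 at 10.2 and 11.7 FPKM in laminin-positive and 26.0 and 25.2 FPKM in laminin-negative libraries. Laminin-511, laminin-521 and laminin-523 were bounded by Lama5 at 15.4 and 13.9 FPKM in laminin-positive and 0.753 and 0.662 FPKM in laminin-negative libraries. Trimers that draw on the same chain share it, so these bounds cannot be added. Whether the chains were made in the same cell could not be seen, since each library pools many cells.

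**Figure D3:**
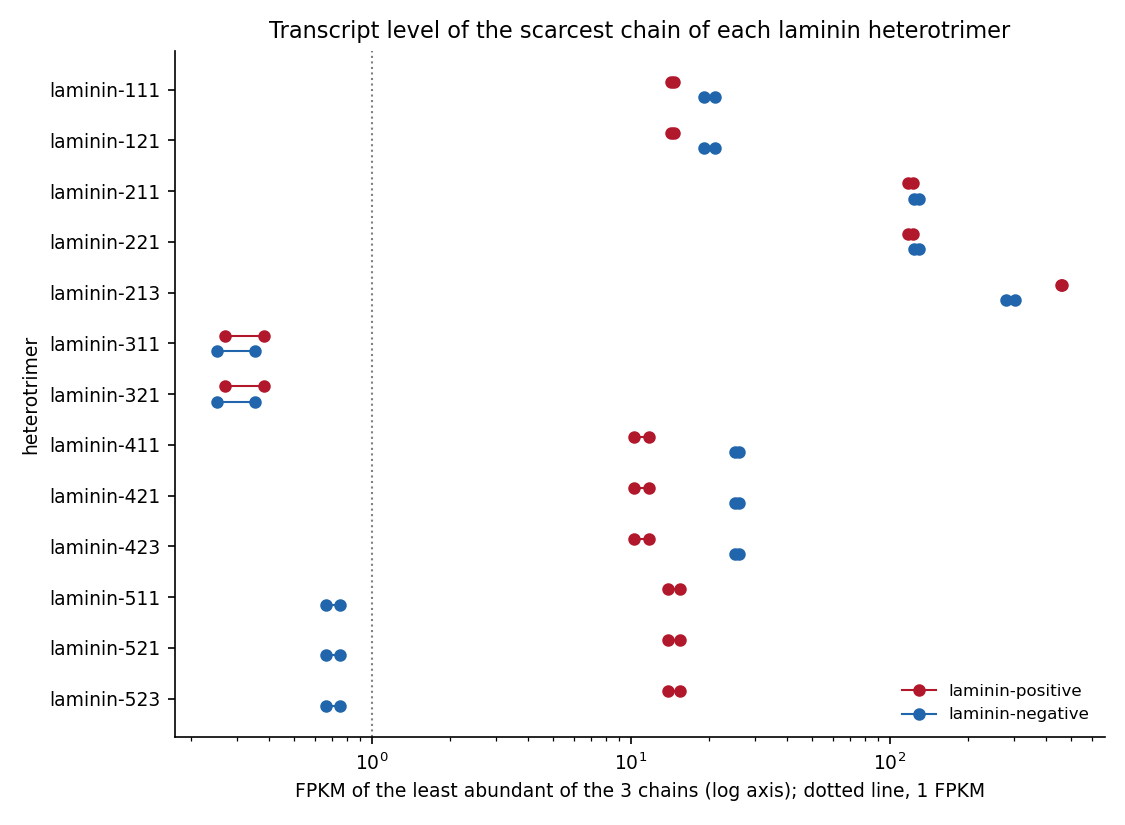
FPKM of the least abundant of the 3 chains (log axis) for each of 13 laminin heterotrimers, in the 2 laminin-positive libraries (red, upper of each pair) and the 2 laminin-negative libraries (blue, lower). Laminin-213 lies furthest right in both populations, and laminin-511, laminin-521 and laminin-523 lie right of the dotted line of 1 FPKM in laminin-positive libraries and left of it in laminin-negative libraries.

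RefSeq promoter sequences on GRCm38.p6 are reported here for 4 of the 9 chains (Lama2, Lama5, Lamb1 and Lamb2), which include 3 of those that rose. Lama2 and Lama5 are shown because they rose by very different amounts. Both genes lie on the minus strand, and each line gives the 250 bases before the RefSeq start, 5′ to 3′ along the gene. The windows are chr10:27616943-27617192 for Lama2 and chr2:180225860-180226109 for Lama5. GENCODE M21 starts Lama2 further upstream, at 27619758, so the Lama2 window lies inside the gene as placed above. Capitals mark matches, on either strand, to the motifs searched: the GC box (GGGCGG), the TATA box (TATAAA), the CCAAT box, the E-box (CACGTG), the letters TGGGAA as in sites of the Notch effector CSL, and the CArG box, the site of serum response factor in smooth muscle genes.
Lama2: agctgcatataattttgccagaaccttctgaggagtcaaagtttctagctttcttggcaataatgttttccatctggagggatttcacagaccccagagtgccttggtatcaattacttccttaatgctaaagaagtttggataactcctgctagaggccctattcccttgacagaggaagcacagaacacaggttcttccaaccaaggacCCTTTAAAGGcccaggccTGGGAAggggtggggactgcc
Lama5: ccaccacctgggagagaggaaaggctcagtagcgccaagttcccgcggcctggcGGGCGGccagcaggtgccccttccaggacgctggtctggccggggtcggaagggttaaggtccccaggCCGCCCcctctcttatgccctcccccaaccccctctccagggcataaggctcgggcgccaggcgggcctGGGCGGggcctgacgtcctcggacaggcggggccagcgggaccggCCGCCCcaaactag

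The Lama2 window held 1 CArG box and 1 TGGGAA, with a GC content of 47.2%. A CArG box was found in 1.47% of 32851 promoter windows of the same length and TGGGAA in 21.6%. The Lama5 window held 4 GC boxes, a motif found in 32.7% of all windows, and had a GC content of 72.4%, against a median of 52.4%. Lamb1 held 2 GC boxes, 1 CCAAT and 2 TGGGAA (GC content 62.0%), and Lamb2 held none of the 6 motifs (43.6%). The Lamb1 and Lamb2 windows, also set by RefSeq, run past the GENCODE M21 starts of these genes. The CCAAT box, TATA box and E-box were found in 33.8%, 12.4% and 6.02% of all windows. No marked matches overlapped in these windows, and a match of letters describes the sequence and is no evidence of binding.

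Laminin receptors are the integrins, dystroglycan and the Lutheran glycoprotein Bcam. Of 9 listed receptor genes 7 were tested. Itga3 and Itga6 passed the filter only through the laminin-positive libraries, so their higher values there were fixed by it. Of the other 5, 4 rose in laminin-positive cells (Itga1, Itga7, Itgb1 and Bcam) and 0 fell, where 26.6% of all genes rose. Itga7, the integrin subunit of muscle that binds Lama1 and Lama2 laminins, stood at 80.4 and 75.7 FPKM in laminin-positive libraries, against 6.88 and 6.26 FPKM in laminin-negative libraries (log2 difference 3.38, SE 0.08, limma adjusted p = 2.74e-10). Itga3, whose integrin binds Lama3 and Lama5 laminins, stood at 16.0 and 15.2 FPKM in laminin-positive libraries, against 0.688 and 0.752 FPKM in laminin-negative libraries. Itga1, which binds collagen IV as well as laminin, differed most, at 34.7 and 36.3 FPKM in laminin-positive and 1.32 and 1.01 FPKM in laminin-negative libraries. Dag1, the dystroglycan gene, was the tested receptor that did not pass, at 111 and 115 FPKM in laminin-positive and 105 and 102 FPKM in laminin-negative libraries (limma adjusted p = 0.147). It was called higher under quantile normalization and with equal FPKM sums. Without variance shared across genes, Itgb1 (limma adjusted p = 0.0530) and Itga6 (0.0524) lost their calls. Itga2 and Itgb4 were below the filter.

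Dystroglycan binds laminin through matriglycan, a sugar chain built by a set of glycosyltransferases. Of 11 such genes 2 rose (Pomgnt1 and B3galnt2), 3 fell (Pomgnt2, Rxylt1 and B4gat1) and 6 did not pass (median log2 difference −0.15). That is 5 of 11 called, against 52.9% of all genes. Pomgnt2 stood at 7.20 and 6.56 FPKM in laminin-positive libraries, against 16.2 and 13.3 FPKM in laminin-negative libraries. B3galnt2 stood at 13.0 and 13.1 FPKM in laminin-positive and 8.34 and 8.48 FPKM in laminin-negative libraries, and Rxylt1 at 25.5 and 29.1 FPKM in laminin-positive and 38.5 and 41.1 FPKM in laminin-negative libraries. Pomt1, the most abundant member that did not pass, stood at 15.3 and 16.1 FPKM in laminin-positive libraries and at 17.0 FPKM in each laminin-negative library. B4gat1, near the threshold (limma adjusted p = 0.0338), lost its call in 7 of the alternatives and had an adjusted p of 0.379 with equal FPKM sums. Without laminin-positive replicate 2 the counts were 1 higher and 2 lower, where Pomgnt1 and B4gat1 lost their calls, and without variance shared across genes they were 2 and 0.

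Other proteins tie laminin to the rest of the basement membrane. Of 8 tested partners 4 rose (Hspg2, Agrn, Ntn4 and Fbln1) and 4 fell (Nid1, Nid2, Fbln2 and Egflam), with a median log2 difference of 0.01, where 26.6% of all genes rose and 26.3% fell. Agrn, the gene of agrin, which binds the coiled coil of laminin and dystroglycan, stood at 43.4 and 41.8 FPKM in laminin-positive libraries, against 15.1 and 13.7 FPKM in laminin-negative libraries. Fbln2, the gene of fibulin-2, stood at 0.455 and 0.178 FPKM in laminin-positive libraries, against 10.2 and 10.3 FPKM in laminin-negative libraries. It passed the filter only through the laminin-negative libraries, so that it had to differ. Nid2 stood at 54.2 and 54.0 FPKM in laminin-positive and 150.04 and 141 FPKM in laminin-negative libraries. The rise of Hspg2, the perlecan gene, was lost without laminin-positive replicate 1 (limma adjusted p = 0.0603), with no filter (0.0516) and without variance shared across genes (0.214), where Fbln1 was lost too (0.0625). All 6 collagen IV genes rose (median log2 difference 1.17), against 26.6% of all genes, led by Col4a3 at 400 and 432 FPKM in laminin-positive libraries, against 29.8 and 27.4 FPKM in laminin-negative libraries. Col4a4, which joins Col4a3 in one kind of collagen IV trimer, stood at 639 and 680.3 FPKM in laminin-positive and 93.2 and 81.9 FPKM in laminin-negative libraries. Col4a1, of the ubiquitous collagen IV trimer, stood at 976 and 977 FPKM in laminin-positive and 387 and 357 FPKM in laminin-negative libraries. Col4a5 lost its call without variance shared across genes (limma adjusted p = 0.0532).

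**Figure D4:**
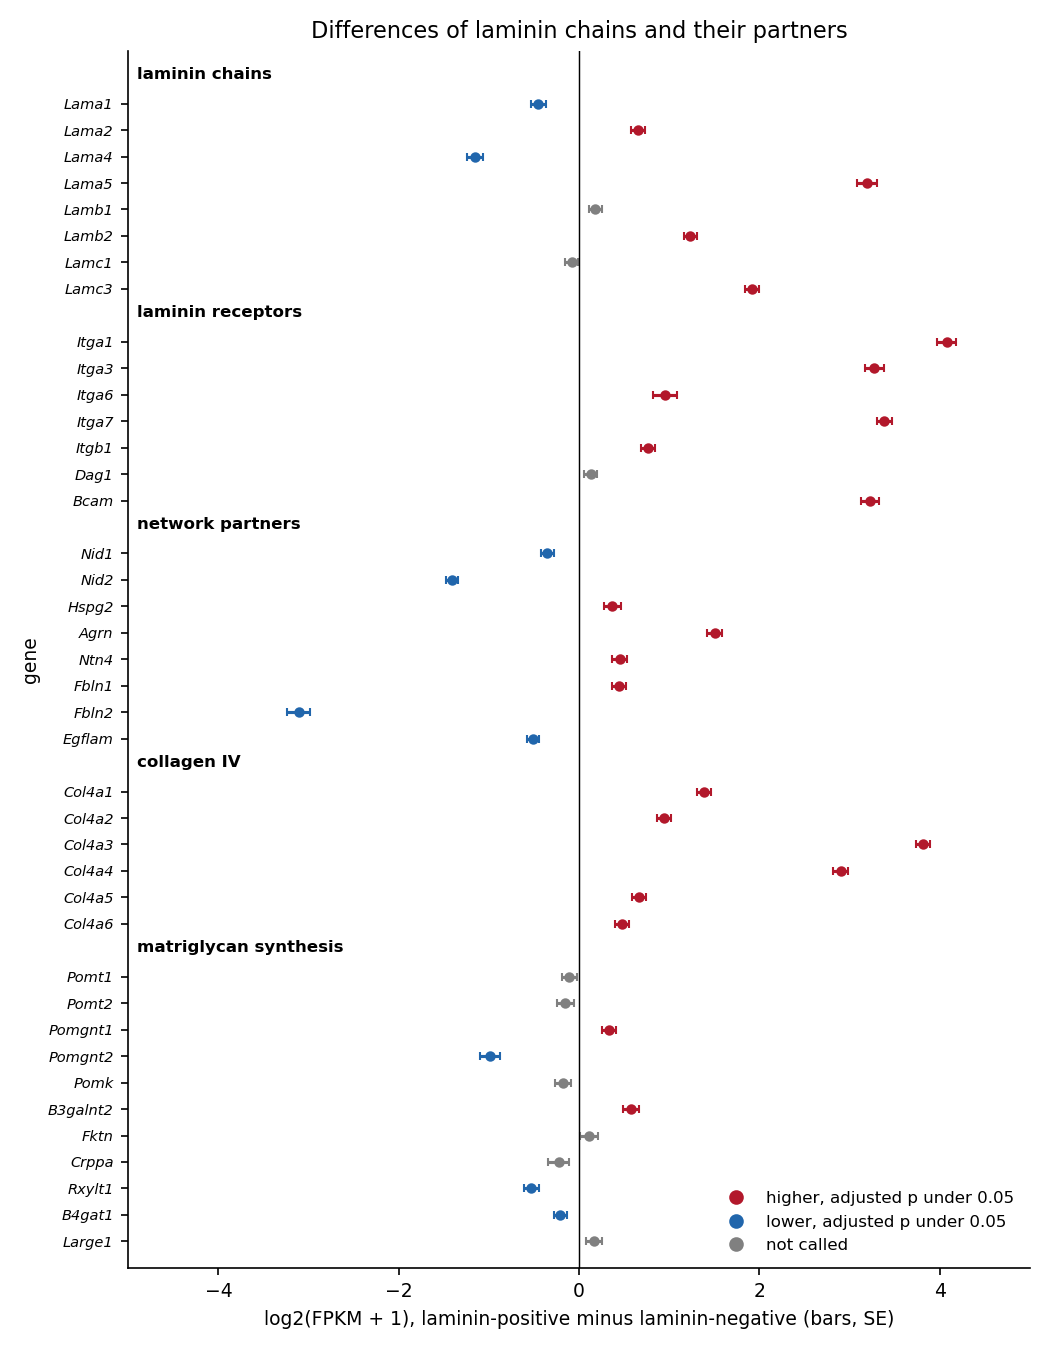
Log2(FPKM + 1) differences, laminin-positive minus laminin-negative, with SE bars from limma, for the tested laminin chains, receptors, network partners, collagen IV genes and matriglycan enzymes (red, higher; blue, lower; grey, not called). The laminin chains run from −1.15 for Lama4 to 3.19 for Lama5, and all 6 collagen IV genes lie right of 0.

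Markers of other cell types were read beside the chains. Sertoli cell markers (6 genes) summed to 41.9 and 29.5 FPKM in laminin-positive libraries, against 14.1 and 12.6 FPKM in laminin-negative libraries. Of that sum, Cldn11 held 20.5 and 13.0 FPKM in laminin-positive and 0.872 and 1.28 FPKM in laminin-negative libraries. Sox9 ran the other way and was not called, at 8.81 and 6.61 FPKM in laminin-positive and 10.3 and 9.08 FPKM in laminin-negative libraries. Gata1 overlapped between the populations and was not called either. Germ cell markers (5 genes) summed to 39.8 and 41.3 FPKM in laminin-positive and 12.4 and 14.5 FPKM in laminin-negative libraries, and macrophage markers (5 genes) to 29.3 and 23.3 FPKM in laminin-positive and 4.80 and 3.49 FPKM in laminin-negative libraries. Of these, 3 of 5 tested Sertoli, 5 of 5 germ cell and 5 of 5 macrophage markers were called higher, against 26.6% of all genes. However, 2 Sertoli markers (Amh and Dhh), 1 germ cell marker (Ddx4) and 4 macrophage markers (Csf1r, Adgre1, C1qa and C1qb) passed the filter only through the laminin-positive libraries and had to differ. Pericyte markers (6 of 6 higher) summed to 310 and 315 FPKM in laminin-positive and 49.6 and 46.0 FPKM in laminin-negative libraries. Such sums do not give how much RNA of a laminin chain a cell type supplied. The part of these cell types in the differences of Lama5, Lama2, Lamb2 and Lamc3 was not tested. The smooth muscle marker sums given above moved in the same direction as those 4 chains.

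Endothelial markers (5 genes) summed to 13.8 and 13.5 FPKM in laminin-positive libraries, against 169 and 177 FPKM in laminin-negative libraries, the direction of Lama4. Nearly all of that sum in laminin-negative cells was Cdh5, at 165 and 173 FPKM. The defining endothelial genes Pecam1 and Kdr ran opposite to Lama4, as did Emcn, but Pecam1 and Kdr were below the filter. Pecam1 stood at 0.869 and 0.615 FPKM in laminin-positive and 0.126 and 0.141 FPKM in laminin-negative libraries, and Kdr at 0.586 and 0.411 FPKM in laminin-positive and 0.0803 and 0.0437 FPKM in laminin-negative libraries. Tek (lower) and Emcn (higher) passed the filter only through the population where each is high. The steroidogenic Leydig marker sums given above also moved in the direction of Lama4, as did Lama1. The part of endothelial or Leydig cell RNA in the differences of Lama4 and Lama1 was not tested. No marker of any list was at 0 in every library.

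The genes whose pattern lay closest to those of Lamc3 and Lama5 were named by the smallest Euclidean distance between log2(FPKM + 1) profiles over the 4 libraries, each centred on its mean. With 4 libraries in 2 populations this measure is mainly the size of the difference. For Lamc3 they were Asb10, Myl6, Tenm2, Skil and Chn1, at distances of 0.0445 to 0.0680. Of these, Asb10 and Tenm2 passed the filter only through the laminin-positive libraries and had to differ. Myl6, a myosin light chain gene, stood at 2024 and 2005 FPKM in laminin-positive and 539 and 537 FPKM in laminin-negative libraries. For Lama5 they were D030025P21Rik, D630003M21Rik, Itga3, Nptx2 and Jph2, at distances of 0.0389 to 0.147. Like Lama5 itself, D030025P21Rik and Itga3 passed the filter only through the laminin-positive libraries. Jph2, the gene of junctophilin-2, stood at 31.1 and 31.0 FPKM in laminin-positive and 2.55 and 2.12 FPKM in laminin-negative libraries.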

How the data were processed

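The authors deposited 1 table of FPKM with a column for each of the 4 libraries, per the file headers. TopHat2 2.1.1 and Cufflinks 2.2.1 are listed in the submitters' processing notes, with no role stated. No source used here gives the build. Of 21314 symbols shared with GENCODE M21, 99.4% had overlapping places in the table and on GRCm38, so coordinates are printed from that annotation. FPKM hold no counts. Of the lowest length-scaled values, 26.9 to 29.9% lay within 0.1 of a whole multiple of the best step tried. Without a step, 20% would for a multiple fixed in advance. The step tried was chosen for the largest share, so that 20% is too low to compare with and the shares decide nothing. Depth is thus unknown and no counting interval is given.

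Rows with at least 1 FPKM in at least 2 libraries were tested with limma 3.58.1 (R 4.3.3) on log2(FPKM + 1), laminin-positive minus laminin-negative, using trended empirical Bayes variances (residual degrees of freedom 2, median prior 8.21), without a replicate block, adjusted by Benjamini-Hochberg over all rows tested. This scale understates changes near 1 FPKM, and folds are ratios of mean FPKM. Replicates shared an identical value above 0 in 1 row (laminin-positive) and 0 rows (laminin-negative), so none was treated as a copy.

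The members, lists and trimers were chosen with earlier results of these data known. In partner lists, up to 3 called genes with the largest log2 difference and the most abundant gene not called are named. Others are named where an alternative ends their call, or to complete a count. Some genes of these families, and trimers that contain them, are not reported here. Alternatives were pseudocounts, filters, scalings, omitted libraries, the block and the variance model. Without variance shared across genes, each gene had an ordinary linear model on the same limma design.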

Additional observations from a re-analysis of the deposited data

How the results depend on the processing

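Under 14 alternatives, Lama2, Lama4, Lamb2 and Lamc3 were called in the same direction each time, Lama1 in 13, Lamb1 in 3 and Lamc1 in 0. Lama5 was also called each time, but it passed each filter only through the laminin-positive libraries, so its call under a filter was fixed. The number of chains called stayed at 6 or 7. Lamc1 turned sign with equal FPKM sums (0.0395, limma adjusted p = 0.696). Over all genes 6533 were called, 5197 to 6318 when any library was left out, with its lone partner assumed to vary like the other population, and 2557 without variance shared across genes. With a replicate block 6719 genes and the same number of chains, 6, were called. Libraries with the same number did not deviate together (r = 0.01 across 12348 genes, which are not independent), so the numbers are not shown to pair the libraries.

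The difference in the alpha to beta ratio, 0.0120 with all libraries, lay between −0.00622 and 0.0302 when any library was left out and so had no settled sign. The other shares and ratios kept their direction. Depth is unknown, which limits chains below 1 FPKM most.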
